A study of Mus musculus with 15 samples.

Results

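Crosslink sites on the strand opposite to annotated genes were examined in iCLIP data for tristetraprolin (TTP, the product of Zfp36) from mouse macrophages. A site was a member when it lay in no gene on its own strand, inside the span of a gene on the opposite strand, and farther than 5000 nt past the 3′UTR end of any protein-coding transcript on its own strand, with the chromosome 17 ribosomal RNA locus and the mitochondrial genome left out. These antisense sites comprised 1059 of the 123142 distinct positions in the 6 deposited lists and carried 4715 cDNAs. Joined where neighbours lay within 1000 nt, they formed 368 loci opposite 336 genes on 20 chromosomes.

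iCLIP joins a protein to the RNA it touches with UV light and reads the crosslinked nucleotide from where reverse transcription stops, so that each unique cDNA counts 1 crosslinking event. The cells were C57BL/6 bone marrow-derived macrophages that lacked endogenous TTP, had been immortalised with hcmyc and hRasG12V, and carried a doxycycline-inducible vector for GFP-TTP or for GFP-TTP-AA, in which both serines phosphorylated by the kinase MK2 are alanines. All cells of both genotypes received doxycycline (1 µg/ml) for 6 h, either with no lipopolysaccharide (LPS), called 0 h, or combined with LPS at 1 µg/ml for 1 h or 4 h. The TTP lists summed 2, 4 and 2 libraries at 0 h, 1 h and 4 h and the TTP-AA lists 2, 3 and 2, so each group had 1 value and no spread between replicates existed. The intervals below are 95% Wilson or Newcombe intervals, which cover counting error only and are too narrow where sites share a locus.

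TTP binds AU-rich elements with an AUUUA core in mRNA 3′UTRs and leads such mRNAs to deadenylation and decay. RNA read on the strand opposite to a gene can come from an antisense transcript, from divergent transcription at a promoter, or from an unannotated unit such as the end of a processed pseudogene. Processed pseudogenes are copies of mRNAs that were reverse transcribed and inserted elsewhere, often together with the 3′UTR and poly(A) tail of the parent mRNA, and annotation may end such a copy at the point where the reading frame ended.

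Outside the ribosomal RNA locus and the mitochondrial genome the lists held between 16588 and 154809 cDNAs. Of 10 macrophage markers, 9 had sense cDNAs, 586 in all over the 6 lists and most of them, 432, in the TTP-AA list at 1 h, whereas Fcgr1 had none. The fibroblast markers Col1a1, Col3a1 and Dcn had 2 together. Zfp36 itself had 9, 28 and 0 sense cDNAs in the TTP lists at 0 h, 1 h and 4 h and 0, 162 and 0 in the TTP-AA lists. RNA levels were not part of these data, so fewer cells of a type, less RNA per cell and less binding cannot be told apart. Headers of the 1 h lists carried a mark for treating regions as a unit that the other headers lacked, so this mark and the time of 1 h cannot be told apart.

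The sequences that carry the main result came from the end of a processed pseudogene and from the mRNA it copies. The antisense site with most cDNAs opposite the lincRNA Gm26825 (112 cDNAs) lay 71 nt past the annotated end of Gm15459, a processed pseudogene of Hspa8 (the constitutive HSP70 chaperone) on the same strand. The full window around that site could not be read. The first window below is therefore centred on another site of this locus, 62 nt past that end, with 96 cDNAs. The site at 71 nt, chr5:5781544, lies inside it. Each window below has 30 nt, is written 5′ to 3′ on the strand of the site or mRNA (GRCm38, read from GENCODE M21 transcripts), and has AUUUA cores and polyadenylation hexamers in capitals.

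Antisense to Gm26825, chr5:5781538-5781567, minus strand, crosslinked base at position 15: aagtaacatggaatAATAAAactATTTAaa
Hspa8 mRNA, last 30 nt, chr9:40805171-40805200, plus strand: ggaatAATAAAactATTTAaattggcacca

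For all 15 antisense positions there whose next 25 nt could be read, these 25 letters also stood in the Hspa8 transcript. Every position of the locus lay between 47 and 78 nt past the pseudogene. This is inside the 83 nt that the Hspa8 transcript continues beyond the matched part. Counted this way, without gaps, the position with most cDNAs stood 12 nt before the Hspa8 transcript end. The printed letters of copy and parent are offset from this count by a few nt. Stretches of other parent mRNAs, at the distance at which antisense sites lay past their pseudogenes, are shown next, because the letters at those antisense sites themselves could not be read here. The Rpl14 stretch lies inside its longest 3′UTR, 230 nt before the transcript end. AATAAA or its variant ATTAAA is in capitals. These 5 windows were chosen after their letters were seen. Of all 19 parent windows read, that of Hspa8 included, 12 held such a hexamer and 7 did not. Among the 7 were those of Mlf2 and Ppia, and also those of H3f3a, Hmgb1 and Ormdl2. For H3f3a, Hmgb1 and Ormdl2 the antisense site lay farther past the pseudogene than the parent transcript runs on. The end of the transcript was read there instead, so these windows do not lie at the distance of a site. The share of such hexamers at the ends of other mRNAs was not counted.

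Rpl38 mRNA (site past Rpl38-ps2), chr11:114672297-114672326, plus strand: cctctgcgtgtgactATTAAAaaccctgaa
Cox8a mRNA (site past Gm46391), chr19:7215158-7215187, minus strand: taacAATAAAgtctATTTAaaccttgctcc
Rpl14 mRNA (site past Rpl14-ps1), chr9:120574395-120574424, plus strand: ggctacacagaatAATAAAggttctttttg
Mif mRNA (site past Gm10169), chr10:75859358-75859387, minus strand: ccagccgggagaAATAAAtggtttataaga
Rps6 mRNA (site past Rps6-ps4), chr4:86854660-86854689, minus strand: aacaAATAAAtaatgaccttgaatctttca

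Other antisense sites stood in other letters. Those opposite the 5′UTRs of Crmp1 (a neuronal collapsin response mediator) and Clasp2 (a microtubule-binding protein) stood in GC-rich letters, the site opposite the TEC gene Gm37744 in mixed sequence, and the site opposite an exon of Hdac4 before a run of A, which is in capitals.

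Antisense to Crmp1 5′UTR, chr5:37242001-37242030, minus strand: ccggggcgtggcccgcgaggggcgtggccg
Antisense to Clasp2 5′UTR, chr9:113741533-113741562, minus strand: cctggggtgcggcggccggcgggggacggc
Antisense to Gm37744 exon, chr1:74954688-74954717, minus strand: aaagatatcccagacatcccatcggtgcct
Antisense to Hdac4 exon, chr1:92195658-92195687, plus strand: tctcttattctcAAAAAAAAAAAAAAAAAA

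The first question was how much of each library lay antisense. At 0 h, 286 TTP sites with 626 cDNAs and 293 TTP-AA sites with 681 cDNAs were antisense, which was 2.22% (2.05 to 2.40) and 2.38% (2.21 to 2.56) of cDNAs. At 1 h the numbers were 291 sites with 1183 cDNAs for TTP and 417 sites with 1516 cDNAs for TTP-AA, or 1.71% (1.61 to 1.81) and 0.979% (0.931 to 1.03). At 4 h they were 110 sites with 251 cDNAs for TTP and 215 sites with 458 cDNAs for TTP-AA, or 1.28% (1.14 to 1.45) and 2.76% (2.52 to 3.02).

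At 0 h the difference in antisense share had an interval that included 0 (TTP-AA minus TTP, 0.16 percentage points, -0.0871 to 0.406), but its direction changed with the sites and denominator used, from -0.28 (-0.469 to -0.092) with sites up to 20000 nt past any gene left out to 0.384 (0.0836 to 0.687) with 3′UTR cDNAs left out. The share was lower for TTP-AA at 1 h (-0.727, -0.837 to -0.62) and was higher for TTP-AA at 4 h (1.48, 1.19 to 1.78). Without the locus opposite Hacd1 described below, the 1 h difference was -0.12 (-0.208 to -0.0361). The direction at 1 h also depended on the 3′UTR cDNAs in the denominator. Once these were dropped, antisense cDNAs at 1 h made up 2.47% of the TTP-AA list against 1.98% of the TTP list, which is 0.494 points more (0.328 to 0.661), and the TTP-AA lists were then the higher ones at all 3 times.

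**Figure D1:**
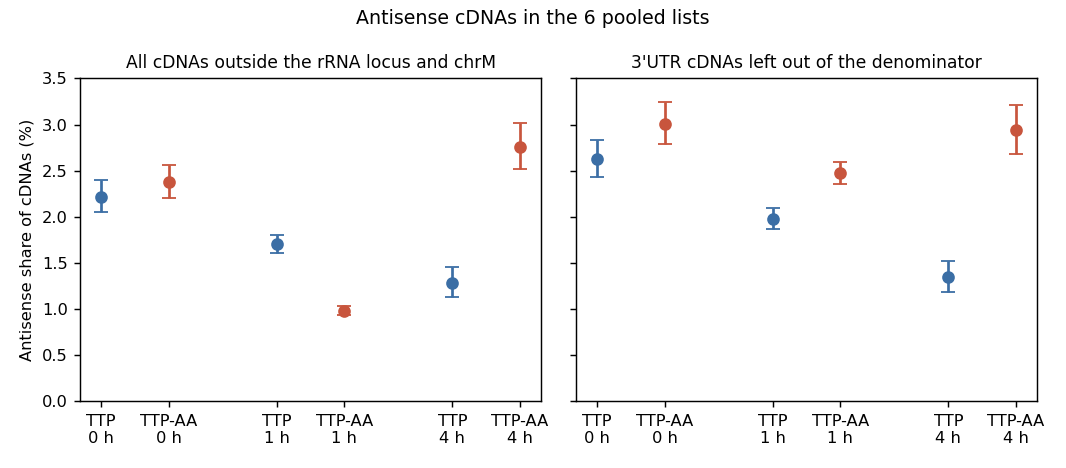
Antisense share of cDNAs (y axis, percent) in the 6 pooled lists (x axis, TTP blue, TTP-AA red), with all cDNAs outside the ribosomal RNA locus and the mitochondrial genome as the denominator on the left and with 3′UTR cDNAs also left out on the right. Bars are 95% Wilson intervals. The TTP-AA point at 1 h moves from below the TTP point on the left (0.979% against 1.71%) to above it on the right (2.47% against 1.98%).

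The antisense space, 1147 Mb, was about as long as the intronic space of 1144 Mb, but held far fewer cDNAs per length. Antisense density was between 8.54 CPM per Mb (CPM, cDNAs per 1000000 cDNAs outside the ribosomal RNA locus and the mitochondrial genome; TTP-AA, 1 h) and 24.1 (TTP-AA, 4 h). Intronic density was between 7.1 times (TTP-AA, 0 h) and 22.5 times (TTP, 4 h) as high, and 3′UTR density between 75.5 times (TTP-AA, 4 h) and 2135 times (TTP-AA, 1 h) as high. Antisense sites therefore made up a thin layer in every list.

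Sites with few cDNAs were common but less so than in 3′UTRs. Sites with 1 cDNA made up between 52.9% (TTP, 1 h) and 64.5% (TTP-AA, 0 h) of the antisense sites of a list, and this share differed from that among 3′UTR sites of the same list by between -29.1 and -15.7 points, with every interval below 0. The difference from intronic sites was between -17.8 and -4.49 points, with 5 of 6 intervals below 0 and that of TTP at 4 h including 0. From the intergenic sites it differed by 5.61 points or less, and every interval of that difference included 0.

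Few antisense sites had a site on the other strand beside them. A site of any class lay within 15 nt on the opposite strand for 2 of 1059 antisense positions, or 0.189% (0.0518 to 0.686), for 0.0848% of intronic (0.0496 to 0.145), 0.0791% of intergenic (0.0494 to 0.127) and 0.0173% of 3′UTR positions (0.00992 to 0.0303). Antisense sites faced 0.552% of all protein-coding genes, so lists of a few genes would hold few or none. Among the lists, 0 antisense cDNAs stood opposite 21 LPS-induced cytokine and chemokine genes, which had 10089 sense cDNAs, 2602 of them in Tnf and 2821 in Cxcl2. The same count was 0 opposite 20 feedback inhibitors of inflammation with 3062 sense cDNAs, opposite 14 abundant mRNAs such as Actb and Fth1 with 9962, and opposite 70 histone genes with 1459. The lists keep only sites that passed a filter, so a 0 means that no site passed, and no upper limit can be set.

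Most antisense sites faced introns. Of the 1059 positions, 916 (86.5%) lay opposite an intron, 92 opposite an exon of a non-coding transcript, 29 opposite a 3′UTR, 19 opposite a 5′UTR and 3 opposite a CDS. The gene on the opposite strand was a lincRNA for 463 positions with 2191 cDNAs and protein-coding for 433 with 2025. Of the 121 protein-coding genes so faced, 57 (47.1%) had sense cDNAs of their own, against 32.6% of all protein-coding genes, but the faced genes were longer, with a median of 93.5 kb against 17.4 kb, and the part of length in this was not tested. Of the 149 lincRNA genes faced, 16 (10.7%) had sense cDNAs, against 4.54% of all lincRNA genes, and these too were longer, with a median of 42.6 kb against 6.43 kb.

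Some sites lay within the first 1000 nt of a protein-coding gene on the opposite strand. By the rule members lie inside that gene, so divergent promoter RNA upstream of its start was not measured. These sites held 2.72%, 2.54% and 3.98% of TTP antisense cDNAs at the successive times. For TTP-AA these shares were 3.23%, 2.44% and 9.17%. Only the difference at 4 h had an interval without 0 (5.19 points, 1.24 to 8.68), and 33 of the 42 cDNAs behind the TTP-AA value there came from the locus opposite Cfi described below. Among these sites near gene starts, those opposite Crmp1 had 9 cDNAs in TTP and 8 in TTP-AA at 1 h. The site opposite Clasp2 had 7 and 0.

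The cDNAs were concentrated in a few loci. The 5 loci with most cDNAs in a list held between 35.3% (TTP, 0 h) and 64.4% (TTP, 1 h) of its antisense cDNAs, whereas the median locus in a list had 2 or 3. Of the 368 loci, 237 had cDNAs in 1 list only and held 12.7% of all antisense cDNAs. Another 5 had cDNAs in all 6 lists and held 36.5%. The same count was not made for other classes of sites, and the lists differ in size. Whether these numbers are particular to antisense loci was not tested. Of 34 loci with at least 20 cDNAs, 11 had over 75% of them at 1 nucleotide.

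The locus with most cDNAs lay on chromosome 2 (13878769 to 13879060, plus strand) opposite an intron of Hacd1, which encodes a dehydratase of very-long-chain fatty acid synthesis. It had 34, 516 and 31 cDNAs in the TTP lists at 0 h, 1 h and 4 h and 19, 213 and 17 in the TTP-AA lists. It was highest at 1 h for both proteins, and it stood at 7442 CPM in TTP and 1376 in TTP-AA at that time, 5.41-fold (4.60 to 6.37) higher in TTP. Of its 830 cDNAs, 628 (75.7%) fell on position 13878847, and Hacd1 itself had 3 sense cDNAs. This locus alone gave 43.6% of the antisense cDNAs of the TTP list at 1 h.

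Opposite Gm26825, at the Hspa8 pseudogene end shown above (chromosome 5, 5781537 to 5781568, minus strand), TTP had 108, 61 and 12 cDNAs at 0 h, 1 h and 4 h and TTP-AA had 177, 283 and 69. TTP-AA was higher at every time, with 6180 against 3827 CPM at 0 h, 1828 against 880 at 1 h (2.08-fold, 1.57 to 2.79) and 4160 against 614 at 4 h. The cDNAs spread over 32 neighbouring positions, and no position held more than 15.8% of them.

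**Figure D2:**
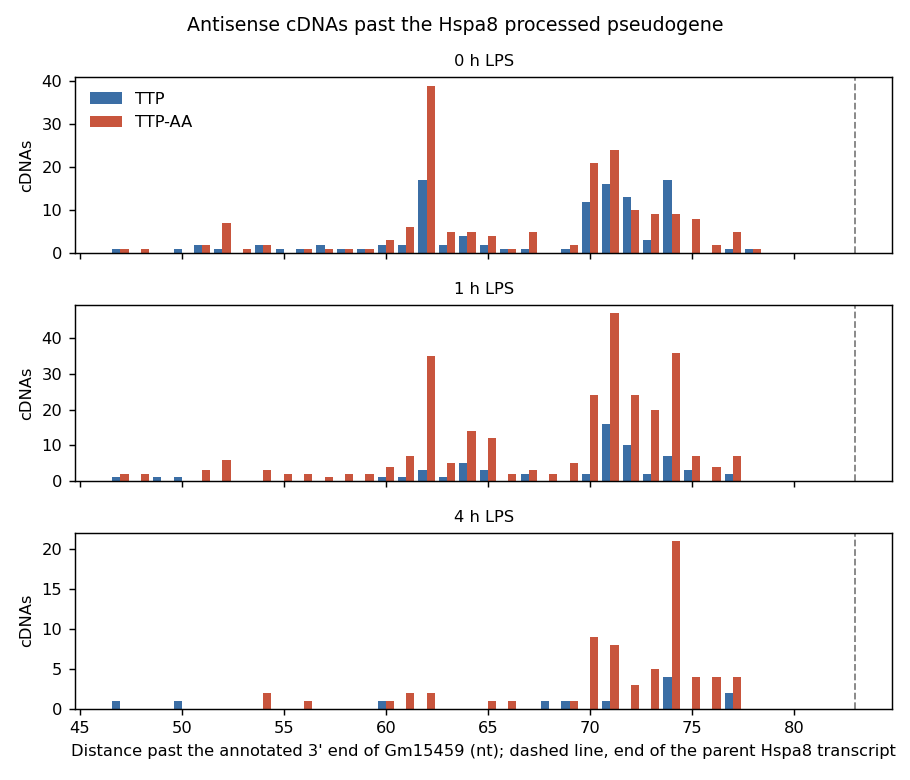
cDNAs at each antisense position (y axis) by distance past the annotated 3′ end of the processed pseudogene Gm15459 (x axis, nt) at 0 h, 1 h and 4 h of LPS, TTP blue and TTP-AA red. The dashed line marks the 83 nt at which the parent Hspa8 transcript ends, counted without gaps. All cDNAs lie between 47 and 78 nt, with the highest column at 62 nt in TTP-AA at 0 h (39 cDNAs) and at 71 nt in TTP-AA at 1 h (47 cDNAs).

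Further loci leaned towards TTP at 1 h. A locus opposite an intron of the lincRNA AC166748.2 (chromosome 19, 8252269 to 8252292, minus strand) had 127 cDNAs in TTP and 57 in TTP-AA at 1 h, 4.97-fold (3.61 to 6.92) higher in TTP by CPM, and at most 11 in any other list. Opposite D130009I18Rik on chromosome 14 the counts at 1 h were 37 and 13, or 6.35-fold (3.30 to 13.0) higher in TTP, at 0 h they were 11 and 0, and at 4 h 9 and 10. TTP thus had more cDNAs there at 0 h and 1 h, and the change by 4 h was not tested.

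Other loci leaned towards TTP-AA at 1 h. Opposite the lincRNA Gm49008 TTP-AA had 71 cDNAs and TTP 8, a 3.98-fold (1.91 to 9.56) higher level. Opposite Hand2os1, the lncRNA beside the cardiac transcription factor gene Hand2, the counts were 45 and 5, or 4.03-fold (1.61 to 13.0). Opposite Gm40849 TTP-AA had 15 cDNAs and TTP none, at least 2.24-fold higher when TTP is set at 3 cDNAs. Opposite AC122252.2 the counts were 14 and 2, a ratio of 3.14 on the counts as they stand, whose counting interval (0.72 to 28.4) included 1, and of 2.09 with TTP raised to 3 cDNAs.

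Opposite an intron of Pdzd2, a PDZ domain protein, 172 of 173 cDNAs fell on 1 nucleotide (chromosome 15, 12728628, plus strand). TTP had 28, 20 and 0 there at 0 h, 1 h and 4 h and TTP-AA had 31, 88 and 6 at the locus, with a ratio of 1.97 (1.20 to 3.38) in CPM at 1 h. The locus opposite Gm35333 had 28, 17 and 5 cDNAs in TTP and 17, 54 and 0 in TTP-AA, and its ratio at 1 h of 1.42 (0.812 to 2.62) included 1. Both loci had cDNAs in unstimulated cells, where Pdzd2 stood at 992 and 1082 CPM in TTP and TTP-AA and Gm35333 at 992 and 594.

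Some loci had uneven counts over the times. Opposite the lincRNA Gm44127 TTP had 18 cDNAs at 0 h and 23 at 4 h, and TTP-AA had 17 and 22, but 0 in both 1 h lists, although these were the largest lists. Opposite an intron of Hdac9, a class IIa histone deacetylase gene, 26 of 29 cDNAs were in TTP-AA at 4 h. Opposite the 3′UTR of Ap5m1, an adaptor protein subunit gene, 20 of 27 were in TTP at 4 h. The locus opposite an intron of Cfi (complement factor I) was not limited to 1 time. TTP had 5, 7 and 0 cDNAs there at 0 h, 1 h and 4 h and TTP-AA had 15, 22 and 33. The 1 h lists differ from the others by the header mark as well as by time, so the gap opposite Gm44127 cannot be assigned to either.

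The locus opposite Gm10685 (chromosome 3) had cDNAs in every list, with 10, 21 and 6 cDNAs in TTP and 10, 25 and 7 in TTP-AA. On the same strand, its site with most cDNAs lay 65 nt past the end of the TEC gene Gm43534. The next gene ahead, 3818 nt away, was Rnu1b6, an annotated U1 small nuclear RNA gene. Opposite the synaptic scaffold gene Dlg2 there were 23, 20 and 0 in TTP and 13, 14 and 5 in TTP-AA. Opposite AC124553.1 the 15 TTP and 6 TTP-AA cDNAs at 1 h stood on 1 nucleotide, and opposite Gm38256 the counts were 17 and 5. Opposite Gm40578, 11 TTP and 2 TTP-AA cDNAs were found at 4 h only. Of the 19 named loci, 13 faced a gene with 0 sense cDNAs in all lists, and the largest sense count of the other 6 genes was 17. Most of all faced genes had none either. Sense cDNAs were present in 57 of 121 protein-coding genes, 16 of 149 lincRNA genes and 9 of 66 others.

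**Figure D3:**
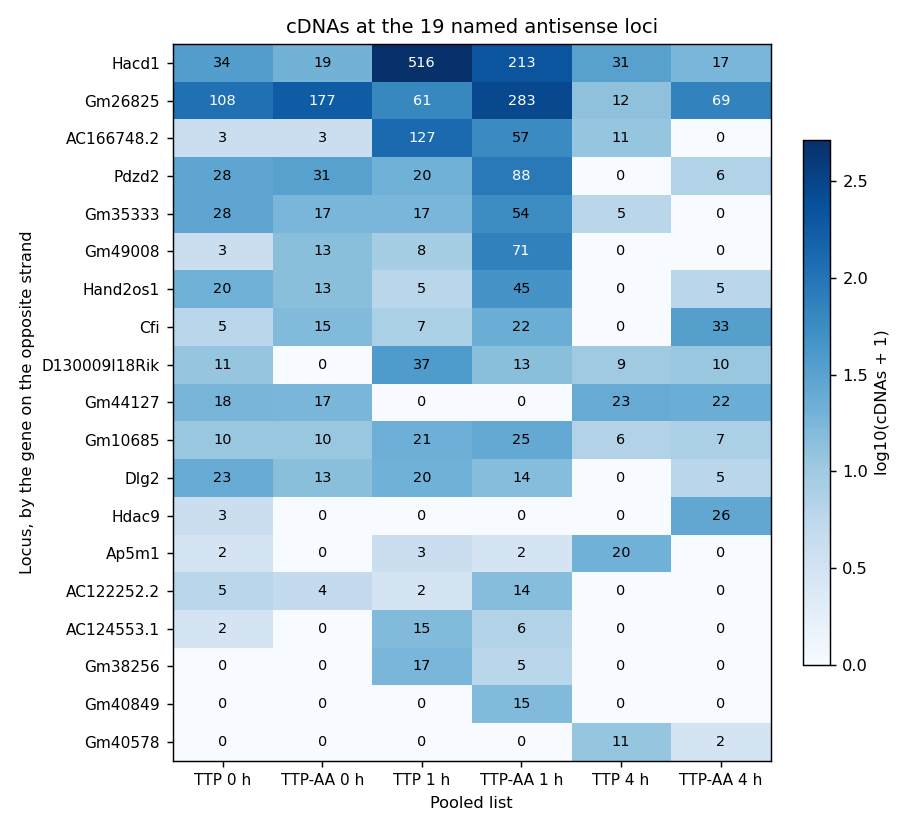
cDNAs at the 19 named antisense loci (rows, named by the gene on the opposite strand) in the 6 pooled lists (columns), with the counts printed and the colour on a log10(cDNAs + 1) scale. The rows opposite Hacd1 and Gm26825 have cDNAs in every list and reach 516 and 283, whereas the row opposite Gm44127 is at 0 in both 1 h lists.

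The loci were then set beside all genes and loci at 1 h. Among all 3457 genes and loci with at least 10 cDNAs over both 1 h lists, 44.0% had at least 2-fold higher CPM in TTP-AA and 15.4% at least 2-fold more in TTP. Of the 34 antisense loci with this depth, 10 (29.4%) had the higher level in TTP, 5 (14.7%) had it in TTP-AA, and their median ratio was 1.08 against 1.79 over all genes and loci. By CPM, more antisense loci were thus called for TTP than for TTP-AA, where the background had more calls for TTP-AA. The difference between these shares was not tested. The order among antisense loci depended on the scaling. With raw cDNAs, 19 of the 34 were at least 2-fold higher in TTP-AA and 5 in TTP.

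The pattern that set the proteins apart at each time was the share of antisense cDNAs just past processed pseudogenes. Over the 6 lists, 144 positions with 944 cDNAs, 20% of all antisense cDNAs, lay within 500 nt past the annotated end of 21 same-strand processed pseudogenes, a group chosen after the positions were seen. At 0 h this was 22.4% of TTP (19.3 to 25.8) and 37.9% of TTP-AA antisense cDNAs (34.3 to 41.6). At 1 h it was 6.26% (5.01 to 7.78) and 24.1% (22.1 to 26.4), and at 4 h 4.78% (2.76 to 8.17) and 20.5% (17.1 to 24.5). TTP-AA thus exceeded TTP by 15.5 points before LPS (10.6 to 20.3), by 17.9 points after 1 h (15.3 to 20.4) and by 15.7 points after 4 h (10.9 to 20.2).

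The locus past Gm15459 carried much of the difference but not all of it. Without the positions past Gm15459, the other pseudogene ends held 32, 13 and 0 cDNAs in TTP at 0 h, 1 h and 4 h and 81, 83 and 25 in TTP-AA, and TTP-AA still exceeded TTP, but by less. The difference in share was then 9.89 points at 0 h (6.08 to 13.8), 5.57 points at 1 h (4.07 to 7.18) and 6.43 points at 4 h (3.85 to 9.31). Intergenic and intronic cDNAs near processed pseudogene ends showed the same order at lower levels. Among intergenic cDNAs the share was 4.91%, 0.463% and 0.446% in the TTP lists of 0 h, 1 h and 4 h, against 9.20%, 3.56% and 4.64% in those of TTP-AA. With the locus past Gm15459 included, the antisense share near such ends was above the intergenic one in every list. The gap ran from 4.33 points (2.30 to 7.73) in TTP at 4 h up to 28.7 points (25.1 to 32.4) in TTP-AA at 0 h. Without that locus the antisense share was 6.18%, 1.16% and 0% in TTP at 0 h, 1 h and 4 h. For TTP-AA it was 16.1%, 6.73% and 6.43%. TTP at 4 h then lay below its intergenic share.

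**Figure D4:**
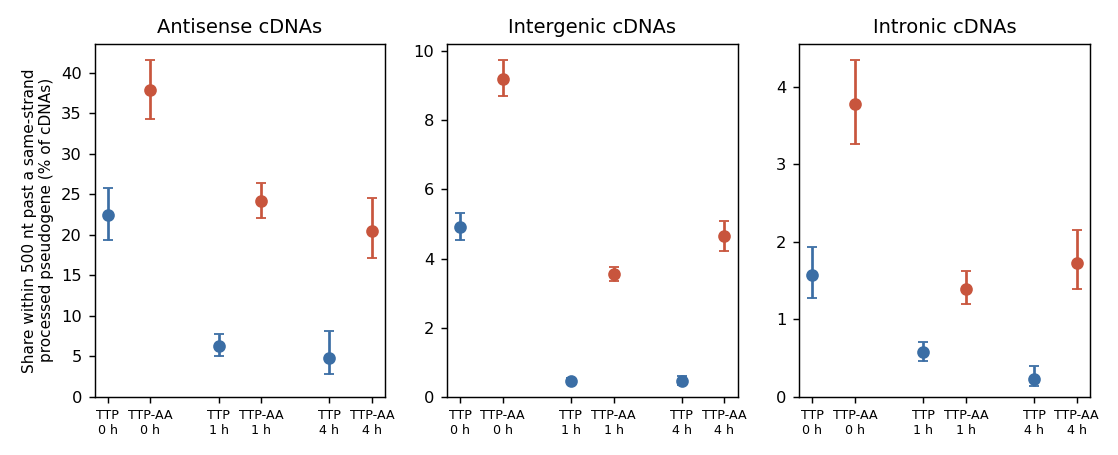
Share of cDNAs within 500 nt past the end of a same-strand processed pseudogene (y axis, percent, separate scales) among antisense, intergenic and intronic cDNAs in the 6 pooled lists (x axis, TTP blue, TTP-AA red), with 95% Wilson intervals. The TTP-AA point lies above the TTP point at each time in each panel, and the antisense point, from 4.78% to 37.9%, is the highest of each list. The locus past Gm15459 is included.

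For 20 of the 21 pseudogenes a parent was found among protein-coding transcripts, with 87.1% identity or more over the aligned part. Of the 142 positions past these 20, 130 (91.5%) lay no farther from the pseudogene than the parent transcript runs on, so within the copied 3′UTR if the copy is complete. For 9 of the pseudogenes the site with most cDNAs stood within 40 nt of an annotated parent end, counted without gaps. These 9 had 834 cDNAs, 710 of them past Gm15459. The nearest end among the parent's matched transcripts was taken, and the share expected of other positions was not counted. The distance was 20 nt for Rpl38, Cox8a and Mif (a macrophage cytokine), 12 nt for Rps6 and 7 nt for Cox7c, a subunit of cytochrome c oxidase like Cox8a. For the other parents it was between 58 nt (Ormdl2) and 1822 nt (Taf13). Among them were Rpl14 (245 nt), Rps23 (244 nt), Rps16 (470 nt) and Rpl27a (620 nt).

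After Hspa8, with 710 of the 944 cDNAs, ribosomal protein genes formed a group among the parents. They were the parents of 7 pseudogenes with 144 cDNAs, of which TTP had 19, 11 and 0 at 0 h, 1 h and 4 h and TTP-AA 40, 58 and 16. Past Rpl38-ps2, opposite Gm11077, TTP had 3, 7 and 0 cDNAs and TTP-AA 17, 16 and 12. Past Rpl14-ps1, opposite the cation channel gene Trpm4, TTP had 6, 0 and 0 and TTP-AA 10, 13 and 0. Past Rps23-ps1 the counts were 4, 0 and 0 against 9, 5 and 4.

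The parent mRNAs themselves had few cDNAs at their own 3′UTRs. Hspa8 had 4 3′UTR cDNAs, all in TTP-AA at 1 h, against 710 antisense cDNAs past its pseudogene. Rpl38, Rpl14, Rps23, Rps16, Rps6 and Rpl27a had 0 in all lists, whereas Mif had 23, Cox8a 12 and Cdc42, a small GTPase, 144. Over all parents 217 of the 3′UTR cDNAs were in TTP-AA at 1 h and between 0 and 10 in each other list. The source states that unique reads were mapped and does not say how a read with several equal matches was placed, and the part of read placement in these counts was not tested.

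Sequence could be read around 126 of the 1059 antisense positions (11.9%, in 60 loci), because most lie opposite introns and no genome of the build was at hand. Within 20 nt of the site, ATTTA was found at 13 of the 126 (10.3%, 6.13 to 16.9), against 4.54% of 2506490 windows of 41 nt tiled over the part of the antisense space with sequence, and TATTTAT at 0. Counting 1 site a locus, ATTTA was near 3 of 60 (5%, 1.71 to 13.7), close to the tiled share. The 13 were made up of 11 of 21 positions past processed pseudogenes, 19 of which are neighbouring positions of the locus past Gm15459, and 2 of the 105 others (1.90%, 0.524 to 6.68). Among 3′UTR sites the share with ATTTA was between 30.2% and 45.8% of a list, so the 105 readable antisense positions away from pseudogene ends were far below it. Readable intronic sites, between 0% and 19.4% of a list, and intergenic sites, between 0% and 5.56%, were below it too. Only 7 of the 60 read loci lay opposite an intron, so these values do not speak for most antisense sites.

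Between the proteins, ATTTA stood near 28.6% of readable TTP-AA and 30.8% of TTP sites at 0 h (difference -2.20 points, -22.1 to 18.3), 20.8% and 13.0% at 1 h (7.79, -6.63 to 22.1) and 31.2% and 4.17% at 4 h (27.1, 3.62 to 51.7). The 4 h value rested on 16 TTP-AA and 24 TTP sites, and counting each locus once it was 3.97 points (-22.0 to 36.9). Of the other motifs, TGTGT was near 4 of 126 positions, against 5.03% of tiled windows, and GCTTCGGG near 0, against 0.033%.

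The polyadenylation hexamer AATAAA stood near 29 of the 126 positions (23%, 16.5 to 31.1), 19 of 21 past pseudogenes and 10 of 105 others, against 2.32% of tiled windows. Counting 1 site a locus it was near 5 of 60 (8.33%, 3.61 to 18.1). A run of 8 A, a motif chosen after the sequences were seen, stood near 23 of the 105 positions away from pseudogene ends (21.9%, 15.1 to 30.7) and 0 of 21 past them, against 0.658% of tiled windows. Counting 1 site a locus it stood near 13 of 60. In 19 of the 23 the run began 3 to 13 nt downstream of the site, as in the window opposite Hdac4 shown above. A start beyond 13 nt downstream could not be counted, because the run had to lie within 20 nt. Runs of A were near readable intronic sites too, so they were not particular to antisense sites. In TTP-AA these were 11 of 22, 7 of 77 and 9 of 21 sites at 0 h, 1 h and 4 h. In TTP they were 6 of 31, 2 of 67 and 0 of 27. The 23 antisense positions were shallow, with 52 cDNAs together, of which 14 were at 1 position opposite Olfr657 whose run lay upstream.

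For 25 of the 121 positions whose next 25 nt could be read (20.7%), the same letters occurred in at least 1 annotated transcript on the same strand. These were the 15 past Gm15459 and 10 others, and for 6 of them, opposite Olfr1324 and CT010445.1, the letters were found in 10 or more genes, with 117 genes at most. The other 96 positions matched no transcript.

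Positions were shared between the proteins to a middling degree. Within 15 nt of a TTP-AA antisense site lay 45.1% of the TTP antisense sites without LPS (39.4 to 50.9). The share was 67.7% after 1 h (62.1 to 72.8) and 31.8% after 4 h (23.9 to 41.0). In the other direction 50.2%, 49.9% and 20% of TTP-AA sites had a TTP site nearby. At 1 h the TTP share was above that of intronic sites by 25.5 points (19.7 to 30.8) and below those of 3′UTR sites (-8.88, -14.5 to -3.66) and intergenic sites (-10.1, -15.8 to -4.92), while at 4 h it was below those of intronic sites (-15.3, -23.6 to -5.86) and intergenic sites (-37, -45.1 to -27.7). The TTP-AA share at 1 h was above that of 3′UTR sites by 28.4 points (23.6 to 33.2), so the order against 3′UTR sites differed with the list from which it was counted. The lists differ in size, and the part of depth in these shares was not tested.

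At the boundary of the rule, members no more than 1000 nt beyond the limit of 5000 nt past a protein-coding 3′UTR end numbered 3 in TTP-AA at 1 h, with 3 cDNAs, and 0 in the other 5 lists. Sites in the last 1000 nt before this limit, which the rule leaves out although a gene lies opposite, numbered between 5 (TTP-AA, 4 h) and 25 (TTP-AA, 1 h) in a list, with between 14 and 65 cDNAs.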

How the data were processed

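The deposited files hold, for each of 6 groups, a list of crosslink sites whose score is, per the file headers and the whole-number values, the number of unique cDNAs with the strand as its sign. According to the methods and labels, the authors removed PCR duplicates by random barcode bases, mapped reads to GRCm38 (mm10) with Bowtie, took the nucleotide before each read, pooled the libraries by group, and retained only significant sites by iCount's false-discovery filter. No further normalisation was applied to the deposited score.

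Sites were assigned here with GENCODE M21 on the same assembly, with Python 3.11.15, numpy 2.4.6, scipy 1.17.1 and matplotlib 3.10.9. Sequence was read from GENCODE transcripts and the RefSeq promoter table (GRCm38), and motifs were counted on the strand of the site only, wholly within 20 nt, with overlaps between motifs kept. Parents of pseudogenes were the best blastn 2.17.0 matches among protein-coding transcripts. CPM values refer to the cDNAs outside the ribosomal RNA locus and the mitochondrial genome. Folds were computed with counts under 3 raised to 3, for the calls, and no test across replicates was possible, since each list is a sum over libraries. The total cDNAs of a list set the precision.

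The named loci were the 5 with most cDNAs in each list and the 5 with the largest and the 5 with the smallest TTP-AA over TTP ratio at 1 h, among loci with at least 10 cDNAs over both lists. Loci and pseudogenes outside this rule were chosen after their values were seen. The members and the gene and motif lists were chosen with earlier results of these data known. The intervals for a difference between shares were tested on simulated independent counts. These held no shared loci and no pooled libraries, so that test does not cover the clustering of sites here. Another marker list and a sequence match are not reported here.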

Additional observations from a re-analysis of the deposited data

Results flagged for a closer look

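The difference in antisense share of cDNAs between TTP-AA and TTP was not the same at the 3 times, by the interval of the change in that difference, which covers counting error only. It was lower by 0.886 percentage points at 1 h than at 0 h (a change of -0.886, -1.16 to -0.618). It was higher by 1.32 points at 4 h than at 0 h (0.936 to 1.71) and by 2.20 points at 4 h than at 1 h (1.89 to 2.52). With 3′UTR cDNAs left out of the denominator, the change from 0 h to 1 h was 0.11 points (-0.235 to 0.454), while those to 4 h were 1.21 (0.775 to 1.64) from 0 h and 1.1 (0.747 to 1.46) from 1 h. Without the locus opposite Hacd1 the change from 0 h to 1 h was -0.334 (-0.591 to -0.0781). The peak-calling mark in the headers of the 1 h lists cannot be told apart from time. No replicate values existed, so single libraries could not be examined.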

How the results depend on the processing

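No paired analysis was possible because each list is a sum over libraries and the columns carry no replicate numbers, and for the same reason no library could be left out. Of 93 alternatives, 70 kept direction and call or stayed within the spread. The causes of the changes were not tested. The 0 h difference in antisense share became 0.224 points (0.012 to 0.437) with all cDNAs in the denominator, 0.384 (0.0836 to 0.687) without 3′UTR cDNAs, -0.0117 (-0.326 to 0.302) counting each site once, -0.28 (-0.469 to -0.092) with 20000 nt past any gene left out and -0.245 (-0.452 to -0.039) without sites past pseudogenes, so 4 of these passed the limit of 0, in both directions. The 1 h difference became 0.494 without 3′UTR cDNAs, which turned its change from 0 h to 0.11, and the 4 h difference kept its direction and call in each alternative. The AUUUA difference became 16.4 at 0 h and 26.1 at 1 h with sites weighted by cDNAs. With sites of at least 2 cDNAs it was 6.67 at 0 h and 25 at 4 h. Within 50 nt it was -3.25 at 1 h and 2.98 at 4 h, counting each locus once -3.53 and 3.97, and without sites past pseudogenes -2.22 and 0. With UAUUUAU it was 0 at 4 h. TTP sites shared at the same nucleotide were 27.3%, 44.3% and 20.9% at 0 h, 1 h and 4 h, and 51.9% at 0 h among sites of at least 2 cDNAs. With raw cDNAs, 24 loci rather than 15 passed 2-fold, 19 of them higher in TTP-AA and 5 in TTP, the reverse of the order by CPM. The pseudogene-end difference kept direction and call in all 15 alternatives, which were chosen after seeing the data. Depth limits the loci with few cDNAs.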
